A study of Mus musculus with 10 samples.

Results

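The pregranulosa and somatic gonad marker genes are 10 genes used to recognise the non-germline cells of the fetal gonad: Foxl2, Wnt4, Rspo1, Lhx9, Gata4, Wt1, Nr5a1, Krt18, Krt19 and Vim. They were chosen by name, not by a rule on their values, but with earlier results of these data known. They are 10 of the 55536 genes in the deposited tables, and each was found once. They were read in RNA-seq libraries of sorted mouse female germ cells, called oocytes by the labels, at E14.5 (embryonic days). The design asks how these cells differ when Taf4b, which encodes a gonad-enriched subunit of the general transcription factor TFIID, is missing. Within it, the marker genes were read for their level in each library and for their differences between genotypes.

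There were 4 libraries of Taf4b-deficient germ cells, which the labels call infertile, 4 of Taf4b-heterozygous germ cells and 2 of Taf4b-wildtype germ cells, both called fertile. All came from C57BL/6 female embryos of parents homozygous for an Oct4-EGFP transgene and heterozygous for the Taf4b mutation, so every group carries the reporter, which marks germ cells. Gonads were dissociated with trypsin and live GFP-positive cells were collected by fluorescence-activated cell sorting. The GFP-negative cells were not analysed here, so no level of the 10 genes in pure somatic cells was at hand. Nothing in the labels ties a library to a single embryo, so the p-values reflect only how far these libraries vary among themselves, which may be technical. Litter dates in 2019 were January 29 (deficient 1 and 2, heterozygous 4, wildtype 1), March 1 (deficient 3, wildtype 2) and March 7 (deficient 4, heterozygous 1 to 3).

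In the fetal ovary, pregranulosa cells surround the germ cells and arise mainly from the coelomic epithelium. The transcription factors GATA4, WT1, NR5A1 and LHX9 act in the early gonad of both sexes, before the supporting cells take a male or female fate. RSPO1, a secreted protein that keeps Wnt receptors on the cell surface, and WNT4, a secreted ligand, drive the female path through beta-catenin, and FOXL2 maintains it. KRT18 and KRT19 are keratins of simple epithelia and VIM is the intermediate filament of mesenchymal cells. None of these filaments is confined to the gonad.

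Library totals ran from 28949924 to 44166320 reads. Taf4b was at 19.6 to 21.4 TPM (transcript abundance scaled by gene length and library depth) in the deficient libraries, against 49.8 to 91.3 TPM in the heterozygous and 51.8 and 78.3 TPM in the wildtype libraries. The 9 germ cell markers listed for comparison were all at a mean of at least 1 TPM and summed to 4502 to 6774 TPM per library, with Dazl at 1407 to 2003 TPM, Ddx4 at 415 to 714 TPM and Pou5f1, the endogenous gene behind the reporter's name, at 83.4 to 261 TPM. The libraries were not at one point of meiotic entry. Sycp3, which encodes a protein of the meiotic chromosome axis, was at 158 TPM in deficient replicate 3 and 127 TPM in heterozygous replicate 1, and at 358 to 1071 TPM in the other 8 libraries.

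Of the 10 genes, Krt18 and Vim had the highest levels. Krt18 averaged 56.5 ± 11.5 TPM (SD, n = 10), rank 3680 of all genes by mean TPM, and Vim averaged 16.7 ± 7.25 TPM, rank 7792. The secreted factor Rspo1 averaged 5.63 ± 2.91 TPM and the transcription factor Gata4 3.51 ± 1.6 TPM. Nr5a1 (1.35 ± 0.734 TPM), Wnt4 (1.09 ± 0.835 TPM), Krt19 (1.07 ± 0.641 TPM) and Wt1 (1.02 ± 0.525 TPM) lay near 1 TPM, and Lhx9 (0.710 ± 0.357 TPM) and Foxl2 (0.355 ± 0.294 TPM, rank 20002) below it. Thus 8 of the 10 had a mean of at least 1 TPM, a level that 16262 genes of the table reached, and 4 of them (Krt18, Vim, Rspo1 and Gata4) reached it in every library.

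Some neighbours in this order kept it in nearly every library and others did not. Krt18 was above Vim in 10 of 10 libraries, Vim above Rspo1 in 9, Gata4 above Nr5a1 in 10 and Wt1 above Lhx9 in 9. Rspo1 was above Gata4 in 6 of 10 libraries, Nr5a1 above Wnt4 in 5, Wnt4 above Krt19 in 4, Krt19 above Wt1 in 6 and Lhx9 above Foxl2 in 7, so those neighbours did not differ beyond their spread.

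**Figure D1:**
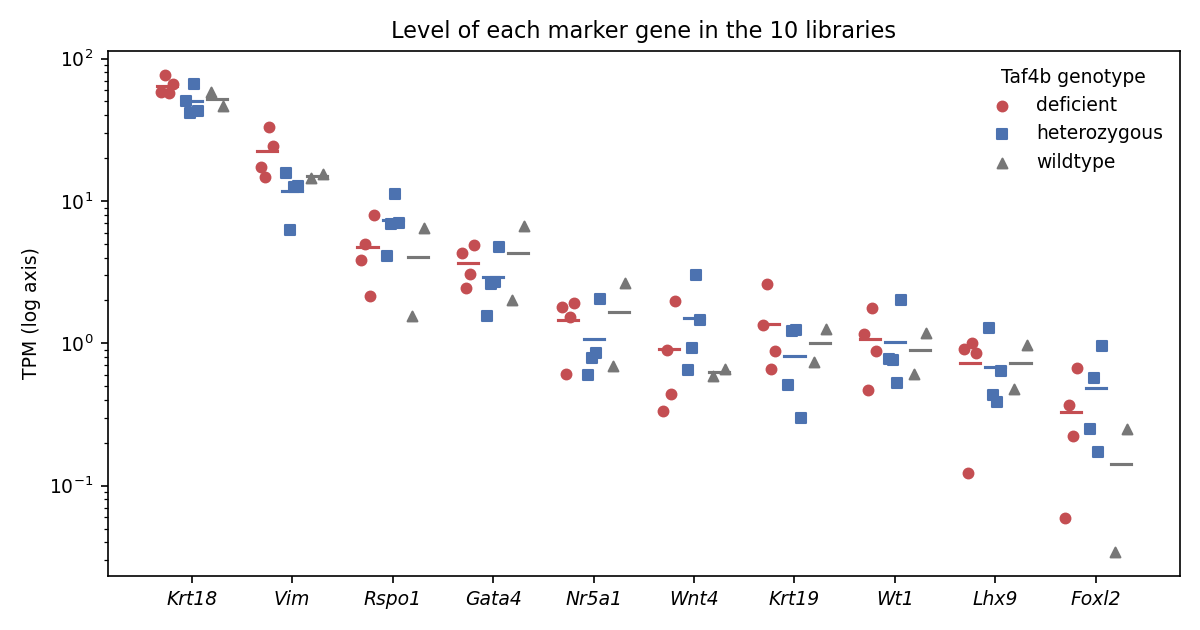
TPM (log axis) of the 10 marker genes, ordered by mean, in each library. Points are libraries, by Taf4b genotype, and short lines are group means. Krt18 lies between 41.6 and 77.2 TPM in all 10 libraries, whereas Foxl2 stays under 1 TPM in each.

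The sequences upstream of the 3 most abundant of the genes are shown because Krt18 and Vim had the highest levels of the 10. RefSeq promoter windows (GRCm38.p6, 250 bases before to 50 after the gene's start) matched 6 of the 10 genes by symbol: Foxl2, Wnt4, Rspo1, Lhx9, Krt18 and Vim. Gata4, Wt1, Nr5a1 and Krt19 had no entry. Capitals mark the letters of any of 5 motifs on either strand, which are the TATA box TATAAA, the GC box GGGCGG, the CCAAT box spelled CCAAT, the GATA factor motif AGATAA and the TCF and LEF factor motif CTTTGA. The Krt18 window is chr15:102027966-102028265, the Vim window chr2:13574061-13574360 and the Rspo1 window chr4:124986180-124986479, all on the plus strand. The Vim window lies within the annotated gene, whose longest span begins upstream of the RefSeq start.
Krt18: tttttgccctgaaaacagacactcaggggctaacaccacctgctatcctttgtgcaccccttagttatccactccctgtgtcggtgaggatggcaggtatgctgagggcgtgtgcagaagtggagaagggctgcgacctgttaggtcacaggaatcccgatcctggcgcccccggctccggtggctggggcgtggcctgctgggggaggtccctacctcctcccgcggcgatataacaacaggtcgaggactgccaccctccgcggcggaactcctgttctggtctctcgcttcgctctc
Vim: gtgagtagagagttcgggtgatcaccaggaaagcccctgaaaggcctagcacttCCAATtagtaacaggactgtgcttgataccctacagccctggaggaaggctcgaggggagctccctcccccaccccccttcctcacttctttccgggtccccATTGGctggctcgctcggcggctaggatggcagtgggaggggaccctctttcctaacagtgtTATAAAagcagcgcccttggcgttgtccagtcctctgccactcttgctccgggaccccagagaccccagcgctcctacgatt
Rspo1: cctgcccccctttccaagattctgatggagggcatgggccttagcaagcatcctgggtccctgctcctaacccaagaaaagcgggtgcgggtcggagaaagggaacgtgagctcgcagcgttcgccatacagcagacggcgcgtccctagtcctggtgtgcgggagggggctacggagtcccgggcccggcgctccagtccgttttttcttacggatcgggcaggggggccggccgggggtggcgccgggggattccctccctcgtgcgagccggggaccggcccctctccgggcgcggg
The Vim window held 1 TATA box, starting at base 219 of the window, and 2 CCAAT boxes, none of them overlapping another motif. Among all 32851 windows of this length, 13.6% held the TATA box on either strand, 37.4% the CCAAT box, 35.7% the GC box, 11.2% the GATA motif and 16.0% the TCF and LEF motif. The Krt18 and Rspo1 windows held none of the 5 motifs. GC content was 61.3% in the Krt18 window, 59.3% in the Vim window and 69.0% in the Rspo1 window, against a median of 52.7% over all windows.

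Krt18, the gene of a type I keratin (chromosome 15, 102028180 to 102032027, plus strand, 7 exons), was the steadiest of the 10. It was at 57.9, 77.2, 57.3 and 66.6 TPM in deficient libraries 1 to 4, at 50.4, 41.6, 66.8 and 42.9 TPM in heterozygous libraries 1 to 4 and at 58.1 and 46.2 TPM in wildtype libraries 1 and 2. All libraries were high and the groups overlapped. The coefficient of variation of its CPM (read counts scaled to library size, with no scaling by length) was 21.3%, under the median of 29.4% over the 20317 tested genes, while those of the other 9 ran from 43.1% (Gata4) to 75.1% (Foxl2). Krt8, the usual type II partner of KRT18, was at 6.18 to 13.4 TPM, and the Krt18 level was 4.32 to 9.20 times the Krt8 level.

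Vim (chromosome 2, 13573927 to 13582826, plus strand, 9 exons in the transcript with most) was more variable. It was at 17.3, 14.8, 32.9 and 24.2 TPM in deficient libraries 1 to 4, at 15.8, 6.26, 12.6 and 12.7 TPM in heterozygous libraries 1 to 4 and at 14.6 and 15.6 TPM in wildtype libraries 1 and 2. Deficient replicate 3 was the highest and heterozygous replicate 2 the lowest, and deficient replicate 2 lay below heterozygous replicate 1. Krt19, a type I keratin of simple epithelia (chromosome 11, 100140810 to 100148665, minus strand), was at 1.35, 2.59, 0.663 and 0.877 TPM in deficient libraries 1 to 4, at 0.507, 1.21, 1.24 and 0.301 TPM in heterozygous libraries 1 to 4 and at 0.741 and 1.26 TPM in wildtype libraries 1 and 2. Deficient replicate 2 stood highest and the groups overlapped.

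A list of 16 other intermediate filament and associated genes, chosen by name and not the whole family, gives a scale for these 3. Of the 16 genes, 9 were at a mean of at least 1 TPM, and the list summed to 98.9 to 129 TPM per library. The highest were the nuclear lamins Lmnb2 (31.1 ± 2.80 TPM) and Lmnb1 (24.4 ± 7.93 TPM), then Ina, a neuronal filament gene (15.7 ± 3.53 TPM), and Des, the muscle filament gene (9.51 ± 1.67 TPM). Krt18 thus had a higher mean TPM than any of those 16 genes, and Vim lay between Lmnb1 and Ina.

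Among the early gonadal transcription factors, Gata4, Nr5a1 and Wt1 were each above their own mean log2(CPM + 0.1) in the same 5 libraries. Lhx9 was above its mean in most of these, deficient 1, 3 and 4 and wildtype 2, but not in heterozygous 4. It was also above its mean in heterozygous 1, its highest library. Gata4 (chromosome 14, 63198922 to 63271692, minus strand) was at 4.34, 2.44, 3.06 and 4.90 TPM in deficient libraries 1 to 4, at 1.57, 2.62, 2.68 and 4.78 TPM in heterozygous libraries 1 to 4 and at 2.00 and 6.68 TPM in wildtype libraries 1 and 2. Nr5a1, which encodes steroidogenic factor 1 (chromosome 2, 38692656 to 38714542, minus strand), was at 1.79, 0.613, 1.53 and 1.93 TPM in the deficient, at 0.595, 0.791, 0.854 and 2.05 TPM in the heterozygous and at 0.691 and 2.65 TPM in the wildtype libraries, in the same order. Wildtype replicate 2 was the highest for both genes and heterozygous replicate 1 the lowest, with each genotype holding high and low libraries. Wt1 (chromosome 2, 105126529 to 105173616, plus strand) was at 1.17, 0.467, 1.77 and 0.889 TPM in deficient, 0.772, 0.769, 0.529 and 2.02 TPM in heterozygous and 0.611 and 1.18 TPM in wildtype libraries, in that order. Heterozygous replicate 4 was its highest library and deficient replicate 2 its lowest.

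Over the 45 pairs of the 10 genes, correlations of log2(CPM + 0.1) across the 10 libraries passed an adjusted p of 0.05 by Pearson's r in 2 pairs, both with Nr5a1. Gata4 and Nr5a1 had r = 0.897 (permutation p = 0.00051, Benjamini-Hochberg adjusted p = 0.023) and Spearman's rho = 0.818 (permutation p = 0.00577, adjusted p = 0.0865). Wt1 and Nr5a1 had r = 0.913 (permutation p = 0.00157, adjusted p = 0.0353) and rho = 0.842 (permutation p = 0.00336, adjusted p = 0.0756). By rank, therefore, neither passed. Without the 2 libraries farthest from the median of the gene named first, r was 0.893 for Gata4 with Nr5a1 and 0.967 for Wt1 with Nr5a1, and with values centred within litter date it was 0.856 and 0.888. A correlation within a single date was not computed, since the dates hold 4, 2 and 4 libraries. Gata4 and Wt1 had r = 0.745 (permutation p = 0.0127, adjusted p = 0.143) and rho = 0.661 (adjusted p = 0.390), with 0.683 without the 2 farthest libraries and 0.600 centred within date. The TPM ratio of Nr5a1 to Gata4 stayed between 0.251 and 0.499, a 1.99-fold range, whereas the ratio of Krt18 to Gata4 ran from 6.92 to 32.2 and that of Vim to Gata4 from 2.33 to 10.8.

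**Figure D2:**
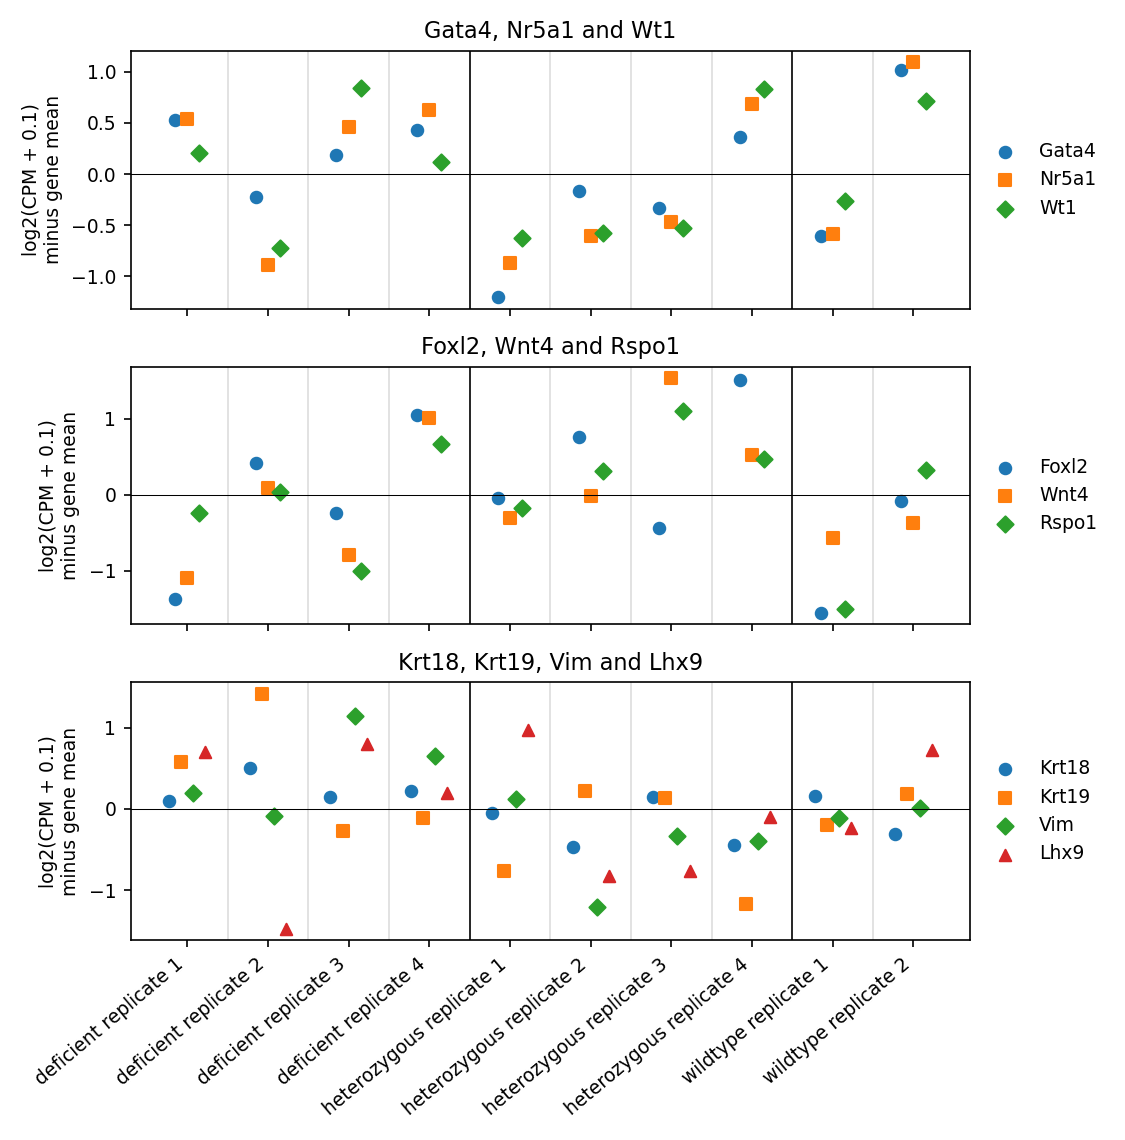
log2(CPM + 0.1) of each marker gene minus its mean over the 10 libraries, one column per library, with black lines between the genotypes. Gata4, Nr5a1 and Wt1 are all above their means in deficient 1, 3 and 4, heterozygous 4 and wildtype 2 and all below them in the other 5 libraries.

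Of the female-pathway genes, Rspo1 and Wnt4 were both highest in heterozygous replicate 3. Rspo1 (chromosome 4, 124986430 to 125009099, plus strand) was at 3.86, 5.01, 2.16 and 8.03 TPM in deficient libraries 1 to 4, at 4.13, 6.87, 11.3 and 6.97 TPM in heterozygous libraries 1 to 4 and at 1.55 and 6.49 TPM in wildtype libraries 1 and 2. Wnt4 (chromosome 4, 137277489 to 137299726, plus strand) was at 0.336, 0.898, 0.442 and 1.97 TPM in the deficient, at 0.652, 0.926, 3.01 and 1.45 TPM in the heterozygous and at 0.589 and 0.661 TPM in the wildtype libraries. The r between them was 0.775 (permutation p = 0.00839, adjusted p = 0.126) and rho 0.867 (permutation p = 0.00195, adjusted p = 0.0756), so the pair did not pass over the 45. Without heterozygous replicate 3 and deficient replicate 4, the 2 libraries farthest from the Wnt4 median, r was 0.604, and centred within date it was 0.685. Rspo1 and Gata4 had r = 0.263 (permutation p = 0.464, adjusted p = 0.788, rho = 0.248), which was 0.145 without the 2 libraries farthest from the Rspo1 median and 0.697 centred within date. Rspo1 and Nr5a1 had r = 0.152 (permutation p = 0.665, adjusted p = 0.827, rho = 0.358), and 0.514 centred within date. Differences between these correlations were not tested. Foxl2 (chromosome 9, 98955288 to 98958543, plus strand, 1 exon) rested on few reads: 4, 26, 12 and 42 in the deficient, 16, 34, 15 and 46 in the heterozygous and 3 and 14 in the wildtype libraries. It was under 1 TPM in all 10, and 0.0343 TPM in wildtype replicate 1.

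Lhx9 (chromosome 1, 138825186 to 138848577, minus strand) did not follow Gata4 closely. It was at 0.918, 0.122, 1.01 and 0.850 TPM in deficient libraries 1 to 4, at 1.29, 0.430, 0.387 and 0.635 TPM in heterozygous libraries 1 to 4 and at 0.480 and 0.981 TPM in wildtype libraries 1 and 2. Heterozygous replicate 1, where Gata4 was lowest, held the highest Lhx9 level, and r between Lhx9 and Gata4 was 0.21 (permutation p = 0.565, adjusted p = 0.788 over the 45 pairs, rho = 0.224). That value was 0.729 without heterozygous replicate 1 and deficient replicate 2, the libraries farthest from the Lhx9 median, and -0.01 centred within date. With Wt1 and Nr5a1, Lhx9 had r of 0.570 and 0.549 (adjusted permutation p = 0.482 each, rho = 0.491 and 0.382). Without the same libraries these values were 0.794 and 0.814, and centred within date 0.475 and 0.422.

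**Figure D3:**
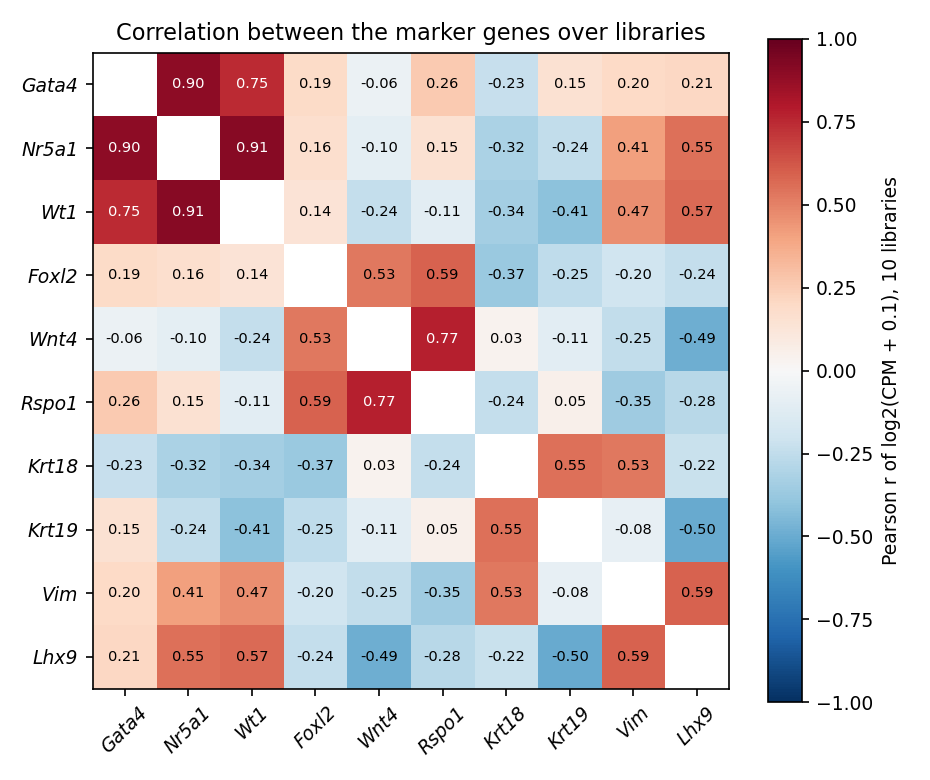
Pearson's r of log2(CPM + 0.1) between each pair of the 10 marker genes over the 10 libraries. Gata4, Nr5a1 and Wt1 form a block from 0.75 to 0.91, Wnt4 and Rspo1 are at 0.77, and Krt18 is at or below 0.03 with all but Krt19 and Vim.

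Some pairs of genes lie on the same stretch of DNA. The annotation places Foxl2os on the opposite strand of Foxl2 (16 to 83 reads per library), Gm12930 opposite Rspo1 (0 or 1 reads) and Nr5a1os opposite Nr5a1 (0 to 4 reads). The strand setting of the counting is not given in the sources used here, so reads of Foxl2 and Foxl2os cannot be told apart. Only for Foxl2 did the partner hold more reads than the gene, and it did so in every library (16 to 83 against 3 to 46 reads). Whether this overlap lowered the Foxl2 count and level was not tested.

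Summed over all 10 genes, the level was 89.0, 105, 101 and 111 TPM in deficient libraries 1 to 4, 75.9, 62.1, 99.4 and 74.8 TPM in heterozygous libraries 1 to 4 and 79.4 and 81.9 TPM in wildtype libraries 1 and 2. The deficient libraries were above all others except heterozygous replicate 3. Krt18 and Vim, which are not confined to the gonad, made up most of that sum in every library, so the other 8 genes were also summed alone, and the order of the libraries differed. The sum of the 8 was 13.8, 12.5, 10.9 and 20.1 TPM in deficient libraries 1 to 4, 9.76, 14.2, 20.1 and 19.2 TPM in heterozygous libraries 1 to 4 and 6.70 and 20.2 TPM in wildtype libraries 1 and 2. The lowest and the highest value were both wildtype, and every genotype held libraries near 20 TPM. As a share of all reads, the 8 genes made up 16.5 to 26.5 RPM (reads scaled to the library total) in deficient libraries, 13.0 to 25.1 RPM in heterozygous libraries, and 10.1 and 28.3 RPM in wildtype replicates 1 and 2. The 95% Wilson intervals of the wildtype shares, which cover counting error only, were 9.06 to 11.3 and 26.5 to 30.3 RPM, so these replicates differed by more than counting error. In bulk RNA, fewer cells of a type and less RNA per cell cannot be told apart.

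Other markers of supporting cells were present at the same scale. Of 16 such genes, 10 had a mean of at least 1 TPM, and the list summed to 27.9 to 38.2 TPM in deficient, 26.6 to 36.6 TPM in heterozygous and 19.0 and 38.0 TPM in wildtype replicates 1 and 2. Among them were the homeobox gene Irx3 (4.78 ± 1.82 TPM, SD over the 10 libraries), Amhr2, which encodes the receptor for anti-Müllerian hormone (3.93 ± 1.61 TPM), and Kitl, the ligand of the germ cell receptor KIT (2.57 ± 1.45 TPM). Amhr2 was at 4.71, 2.62, 3.01 and 4.81 TPM in deficient libraries 1 to 4, at 1.46, 3.48, 4.84 and 5.13 TPM in heterozygous libraries 1 to 4 and at 2.39 and 6.83 TPM in wildtype libraries 1 and 2. Like Gata4 and Nr5a1 it was highest in wildtype replicate 2 and lowest in heterozygous replicate 1, and its ratio to Gata4 stayed between 0.933 and 1.81.

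Each of the 10 genes was then set against the summed CPM of those 16 genes, 10 relations in all. None passed an adjusted p of 0.05 by Pearson's r. Nr5a1 had r = 0.740 (permutation p = 0.00938, adjusted p = 0.0938) and rho = 0.830 (permutation p = 0.00472, adjusted p = 0.0236), and Gata4 had r = 0.717 (permutation p = 0.0199, adjusted p = 0.0994) and rho = 0.842 (permutation p = 0.00360, adjusted p = 0.0236), so both passed by rank. Without wildtype replicate 1 and heterozygous replicate 2, the libraries farthest from the median of the list, r was 0.879 for Nr5a1 and 0.904 for Gata4, and centred within date it was 0.730 and 0.718. Rspo1 (r = 0.57), Wt1 (0.54), Vim (0.38), Lhx9 (0.37), Foxl2 (0.33) and Wnt4 (0.18) followed, with adjusted p from 0.258 to 0.781. Centred within date, Rspo1 was at 0.783, the highest of the 10, but it was at 0.288 without the same farthest libraries. Krt19 (0.03) and Krt18 (-0.06) had the values nearest 0, each with an adjusted p of 0.923.

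Markers of other cell types were read in the same libraries. Markers of fetal testis were low: Amh, the Sertoli cell hormone, had at most 1 read in any library, and the 11 Sertoli and steroidogenic genes summed to 1.85 to 5.16 TPM, with Star at 1.26 ± 0.268 TPM the only gene at a mean of at least 1 TPM, then Fgf9, Hsd3b1 and Insl3. Among 10 endothelial genes, Pecam1, which germ cells also express, was at 34.2 to 181 TPM and Egfl7 at 6.25 to 14.7 TPM, with Plvap and Esam next, but Cdh5, the endothelial cadherin, was at 0 to 0.058 TPM. Of 15 stromal genes 5 were at a mean of at least 1 TPM (Fbln1, Ptch1, Ogn and Col3a1 the highest), and the list summed to 89.9 to 195 TPM, most of it Fbln1 (69.1 to 180 TPM). Fbln1, which encodes an extracellular matrix protein, had a mean of 112 ± 30.4 TPM, above that of Krt18. Among 10 mesothelial genes 6 reached a mean of 1 TPM (Bnc1, Lrrn4, Cdh2 and Krt8 the highest) in a sum of 73.0 to 109 TPM, and Bnc1 (29.7 ± 9.34 TPM) and Lrrn4 (24.7 ± 6.57 TPM) had means above that of Vim. Of these 10 genes 8 had enough reads to be tested, and Upk3b and Msln did not. Whether the Bnc1 and Lrrn4 RNA came from mesothelial cells was not tested. Among 7 mesonephric genes 3 reached a mean of 1 TPM, in a sum of 221 to 386 TPM that was mostly Epcam, which germ cells also express, with Wfdc2, Lhx1 and Pax8 next, while the kidney cadherin Cdh16 had at most 6 reads. The haemoglobin genes Hba-a1, Hbb-bs, Hba-a2 and Hbb-bt led the blood and macrophage list, of which 13 of 15 genes reached a mean of 1 TPM.

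Because the libraries differed in meiotic entry, the 10 genes were also set against Sycp3 and against Pou5f1, a pluripotency gene that declines as meiosis begins. These 20 relations were added after the levels had been seen. Lhx9 ran against Sycp3 with r = -0.81 (permutation p = 0.00345, adjusted p = 0.0529 over the 20) and rho = -0.879 (permutation p = 0.00156, adjusted p = 0.0312). Vim ran with Pou5f1 with r = 0.774 (permutation p = 0.00529, adjusted p = 0.0529) and rho = 0.794 (permutation p = 0.00867, adjusted p = 0.0867). Lhx9 also ran with Pou5f1 (r = 0.757, permutation p = 0.0132, adjusted p = 0.0879; rho = 0.745, adjusted p = 0.106), and Rspo1 against it (r = -0.72, permutation p = 0.0183, adjusted p = 0.0916; rho = -0.709, adjusted p = 0.106). None of the 20 passed by Pearson's r and 1, Lhx9 with Sycp3, passed by rank. Without the 2 farthest libraries, r was -0.804 for Lhx9 with Sycp3 and 0.660 for Vim with Pou5f1, and centred within date -0.776 and 0.725. Both genes are shared between somatic gonad and other cells, so the source of the RNA was not tested by these values.

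**Figure D4:**
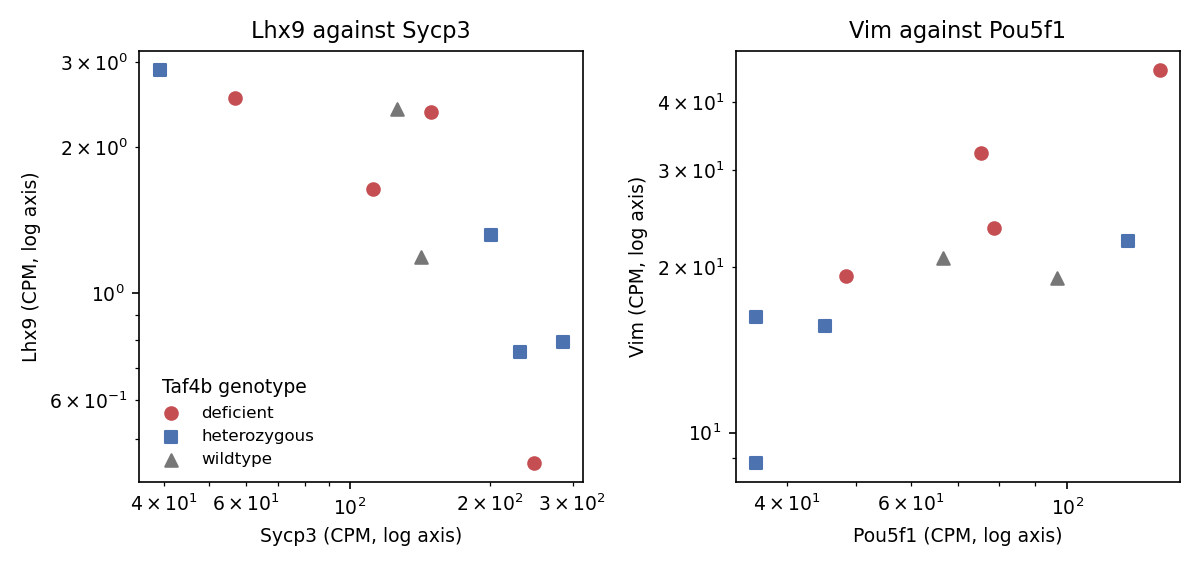
Lhx9 against Sycp3 and Vim against Pou5f1 in CPM on log axes, one point per library. Lhx9 is highest in heterozygous replicate 1, the library with the least Sycp3, and Vim is highest in deficient replicate 3, the library with the most Pou5f1.

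The genes most like each marker across the libraries were sought among 10881 tested genes with a mean of at least 5 CPM, by Pearson's r of log2(CPM + 0.1) over the 10 libraries. Nr5a1 was nearest to Sulf1 (0.897) and Gata4 (0.897), then Gm8121 (0.842). Gata4 was nearest to Klhl23 (0.930), Sulf1 (0.875) and Gm8121 (0.846), and Wt1 to Sulf1 (0.798), Serac1 (0.791) and Slc25a30 (0.790), so Sulf1, which encodes an extracellular heparan sulfatase, came up for each of these 3. Krt18 was nearest to Ppig (0.979), Mrpl33 (0.976) and Ostc (0.975), all at over 70 CPM. Vim was nearest to Usp15 (0.951), Ldlrad3 (0.949) and Msrb2 (0.947), and Rspo1 to Mxra7 (0.965), Micu2 (0.948) and Cntln (0.947). The nearest for the other 4 were Fam20b (0.917), Dnajb14 and Tarsl2 for Foxl2, Ccdc115 (0.920), Olfm1 and Fip1l1 for Wnt4, Gnptab (0.947), Tbc1d24 and Ssh1 for Lhx9, and Atp6v0e (0.902), Tmem234 and Tmco1 for Krt19. These values come from a search over all genes and have no test.

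In deficient against heterozygous libraries, none of the 10 genes was called at an adjusted p under 0.05 by edgeR, where 0.0148% of the 20317 tested genes were. Of the 10, 2 had an unadjusted p under 0.05, Vim and Krt18, both higher in deficient libraries, against 11.9% of all genes in either direction and 4.81% higher. Among the 10, 7 were higher and 3 lower, with a median log2 fold change of 0.38 against -0.05 over all tested genes. None of the 10 had groups that did not overlap, as 5.97% of all tested genes had. DESeq2, with 1.10% of genes called, called none of the 10. limma voom with sample weights, with 14.8% called, called Vim and Krt18.

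Vim was at 23.6, 19.3, 45.6 and 32.3 CPM in deficient libraries 1 to 4, at 22.4, 8.82, 16.2 and 15.7 CPM in heterozygous libraries 1 to 4 and at 19.1 and 20.8 CPM in wildtype libraries 1 and 2. All 4 deficient libraries were above the heterozygous median, but heterozygous replicate 1 was above deficient replicate 2, so the groups overlapped. Means were 30.2 ± 11.6 CPM in deficient (SD, n = 4), 15.8 ± 5.54 in heterozygous (n = 4) and 19.9 ± 1.19 in wildtype libraries (n = 2). The log2 fold change over heterozygous libraries was 0.94 (SE 0.31, 95% interval 0.25 to 1.62, edgeR adjusted p = 0.379). With voom it was 1.02 (adjusted p = 0.0324), and adjusted p over all settings tried ran from 0.0324 to 0.765. Within the litters of January 29 (2 deficient libraries, 1 heterozygous) the difference was 0.45. Within those of March 7 (1 deficient, 3 heterozygous) it was 1.03. March 1 had no heterozygous library. On the other dates every deficient library was above every heterozygous one, for Vim and also for Krt18. With only 1 library in a group on each date, such an order can easily arise by chance. Its share over all tested genes was not counted. In the authors' deposited table, whose contrast is not given in the sources used here, Vim had a log2 fold change of 0.75 with a p of 0.00932 and an adjusted p of 0.669.

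Krt18 was at 44.8, 59.5, 46.3 and 48.6 CPM in the deficient, at 40.3, 30.3, 46.3 and 30.7 CPM in the heterozygous and at 46.8 and 33.8 CPM in wildtype libraries 1 and 2. The deficient libraries were all above the heterozygous median and overlapped the heterozygous range only through heterozygous replicate 3. Means were 49.8 ± 6.66 CPM in deficient (SD, n = 4), 36.9 ± 7.78 in heterozygous (n = 4) and 40.3 ± 9.21 in wildtype libraries (n = 2), and the log2 fold change over heterozygous libraries was 0.43 (SE 0.18, interval 0.03 to 0.84, edgeR adjusted p = 0.404). With voom it was 0.61 (adjusted p = 0.0301), and adjusted p over all settings tried ran from 0.0301 to 0.791. Within date the difference was 0.76 on January 29 and 0.32 on March 7. Krt19 had a log2 fold change of 0.92 (SE 0.48, edgeR adjusted p = 0.466), which was 2.23 within January 29 and -0.04 within March 7.

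Macrophage markers were read beside these 2 genes. Of the 15 blood and macrophage genes, 6 had an unadjusted p under 0.05 in the same comparison, all higher in deficient libraries, against 11.9% of all tested genes in either direction and 4.81% higher, and none was called. C1qb, a complement gene of macrophages, was at 7.12, 5.54, 7.14 and 4.95 TPM in deficient, 0.884, 2.58, 1.91 and 3.88 TPM in heterozygous and 4.88 and 3.08 TPM in wildtype libraries (log2 fold change over heterozygous 1.5, edgeR adjusted p = 0.336), and Fcer1g, an immune receptor subunit, and C1qc had log2 fold changes of 1.80 and 1.57 (adjusted p = 0.287 each). Of the 15 genes, 10 were higher and 5 lower, the haemoglobin genes Hba-a2, Hbb-bs and Hbb-bt among the lower. The whole list summed to 33.3 to 111 TPM in deficient, 22.1 to 89.0 TPM in heterozygous libraries, and to 82.8 and 108 TPM in the wildtype pair. Haemoglobin genes lead that sum, so it does not measure macrophages. Heterozygous replicate 1 had the highest heterozygous sum, 89.0 TPM, with the lowest C1qb, 0.884 TPM. Vim is also abundant in macrophages as a rule, and the part of these cells in its difference was not tested. C1qb, C1qc and Fcer1g were chosen after their values were seen.

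The other 8 genes had intervals that reach from a decrease to an increase. Gata4 had a log2 fold change over heterozygous libraries of 0.50 (interval -0.37 to 1.37), Nr5a1 0.50 (-0.59 to 1.6), Wt1 0.32 (-0.70 to 1.33) and Lhx9 0.28 (-0.96 to 1.52). Rspo1 was at -0.53 (-1.52 to 0.47), Wnt4 at -0.59 (-1.74 to 0.56) and Foxl2 at -0.45 (-1.92 to 1.02), all with edgeR adjusted p of at least 0.593. The level of the other supporting cell markers, as the log2 of their summed CPM, was 0.13 higher in deficient than in heterozygous libraries, within the spread between libraries.

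In deficient against wildtype libraries no gene of the table was called by edgeR (0% of tested genes), and none of the 10 had an unadjusted p under 0.05, against 3.66% of all genes. Neither DESeq2 nor voom called any of the 10, each with 0.00492% of genes called, and none had groups that did not overlap (12.6% of all tested genes). Of the 10, 6 were higher and 4 lower, with log2 fold changes from -0.20 (Nr5a1) to 1.07 (Foxl2, interval -0.94 to 3.08). Vim was at 0.60 (interval -0.25 to 1.45) and was 0.17 within January 29 and 1.13 within March 1. With 2 wildtype libraries, which differed 3-fold in the sum of 8 genes given above, the comparison is imprecise.

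Against both fertile genotypes, given equal weight, again none of the 10 was called (0.00492% of tested genes). Vim was the only 1 with an unadjusted p under 0.05, against 4.31% of all genes, with a log2 fold change of 0.77 (SE 0.29, interval 0.14 to 1.40, edgeR adjusted p = 0.904). Krt18 was at 0.37 (interval -0.01 to 0.75) and Krt19 at 0.77 (interval -0.22 to 1.75), and the others lay between -0.11 and 0.31. DESeq2 (0.0394% of genes called) and voom (0.00492%) called none of the 10, and none had groups that did not overlap (1.39% of all tested genes). The 3 comparisons share the deficient libraries and, in part, the fertile ones.

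In heterozygous against wildtype libraries none of the 10 was called by edgeR (0.00492% of tested genes), DESeq2 (2.40%) or voom (5.23%), and none had an unadjusted p under 0.05, against 8.30% of all genes. Wnt4 was the only 1 of the 10 whose groups did not overlap, as were those of 15.8% of all tested genes. It was at 1.6, 1.98, 5.97 and 2.91 CPM in heterozygous and at 1.32 and 1.52 CPM in wildtype libraries, with a log2 fold change of 1.13 (interval -0.37 to 2.63, edgeR adjusted p = 0.746). Rspo1 was at 0.84 (interval -0.42 to 2.1), Gata4 at -0.67 (-1.71 to 0.37) and Nr5a1 at -0.70 (-2.01 to 0.61).

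**Figure D5:**
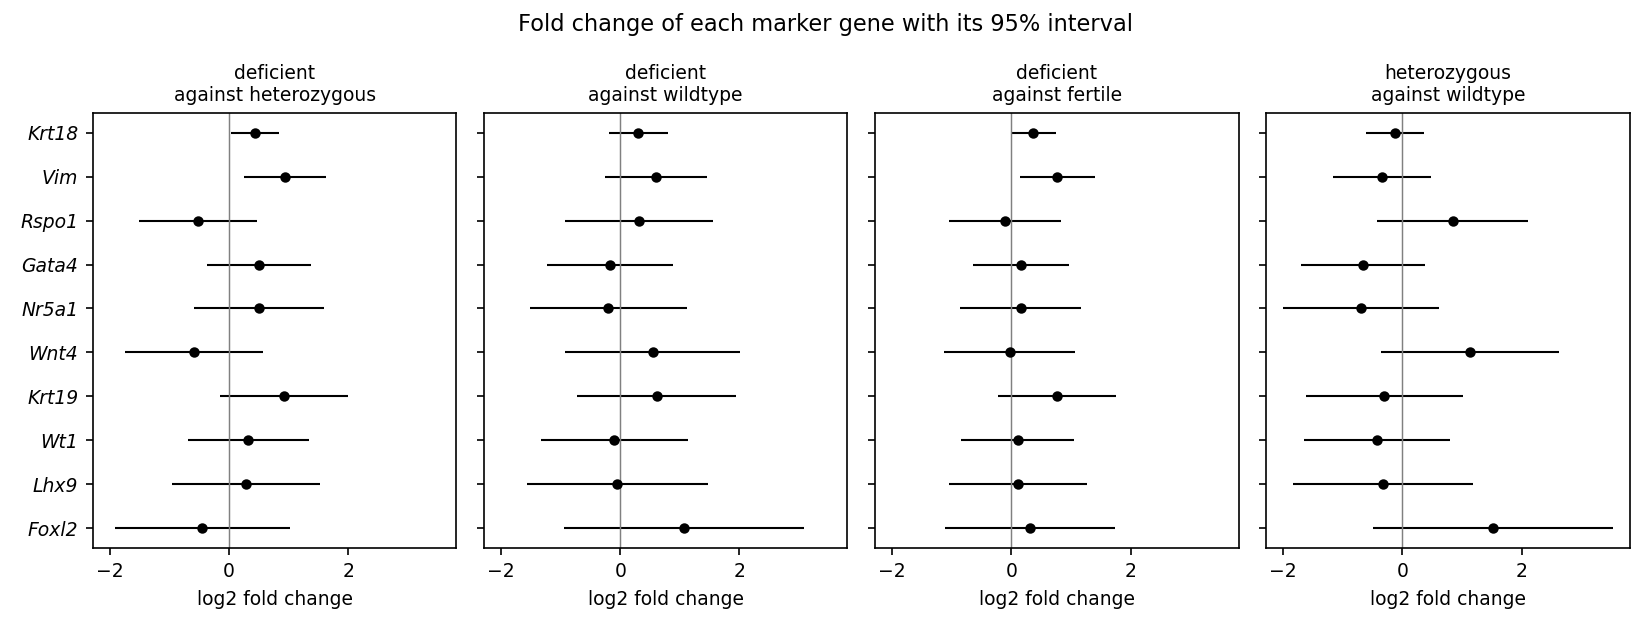
log2 fold change of each marker gene, first-named group over the second, in the 4 comparisons. Points are edgeR estimates and bars their 95% intervals. In deficient against heterozygous libraries the intervals of Vim (0.25 to 1.62) and Krt18 (0.03 to 0.84) lie above 0, but neither gene passed the adjusted threshold.

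Receptors and effectors through which WNT4 and RSPO1 act were detected on both sides of the levels of these ligands. Of 26 Wnt and R-spondin pathway genes 21 had a mean of at least 1 TPM. Ctnnb1, which encodes beta-catenin, was at 431 ± 32.1 TPM, the effector Tcf7 at 76.4 ± 43.6 TPM, the co-receptor Lrp6 at 63.9 ± 33.7 TPM and Notum, a secreted Wnt inhibitor, at 38.8 ± 6.11 TPM. The R-spondin receptors were lower, with Lgr4 at 16.1 ± 6.67 TPM, Lgr5 at 1.43 ± 0.484 TPM and Lgr6 at 0.896 ± 0.486 TPM. None of the 26 was called in any comparison. At an unadjusted p under 0.05, 1 was higher and 3 lower in deficient against heterozygous libraries, where 11.9% of all tested genes passed in either direction. In deficient against wildtype libraries 4 were higher and 0 lower, against 3.66% of all genes, and against both fertile genotypes 0 passed in either direction, against 4.31%. In heterozygous against wildtype libraries 5 were higher and 0 lower, against 8.30%, and Lrp6 had a log2 fold change of 1.09 (edgeR adjusted p = 0.243) and Tcf7 of 1.85 (adjusted p = 0.302).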

How the data were processed

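Per the submitters' processing notes, the tools were Trim Galore 0.5.0, FastQC 0.11.5, HISAT2 2.1.0 and SAMtools 1.9 with the genome build GRCm38, then featureCounts in Subread 1.6.2 for the deposited gene counts and StringTie 1.3.3b for the TPM values deposited beside them. The settings behind these tools are not given in the sources used here. For each gene the DESeq2 table deposited by the authors holds a mean normalized count (a signal), a log2 fold change, a test score and a p-value, per the file headers.

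All 55536 identifiers were found in GENCODE M21. Counts were filtered with edgeR's filterByExpr by genotype, which left 20317 genes including all 10, scaled by TMM and fitted in 1 edgeR 4.0.16 quasi-likelihood model (R 4.3.3) of 3 genotypes over 10 libraries, with totals of 28949924 to 44166320 reads. The contrast against fertile libraries weights heterozygous and wildtype equally. Calls are at a Benjamini-Hochberg adjusted p under 0.05 over all tested genes. CPM scales counts by TMM-adjusted library size over tested genes, and TPM serves to compare genes. Intervals use the test's own degrees of freedom. Correlation p-values come from permutation with 100000 resamples, two-sided, and exact enumeration where 1 library is left out. The scripts were tested on simulated data.

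The members, gene lists and naming rule were chosen with earlier results of these data known. The rule names the 10 genes, Taf4b, Dazl, Ddx4, Pou5f1, the 4 highest genes of each other list by mean TPM, any called list gene and the 3 genes nearest to each of the 10; 1 gene that it names is not reported here. Amh, Cdh5, Cdh16, Upk3b, Msln, Krt8 as a partner, Sycp3, the macrophage genes and overlapping genes lie outside it, picked once their values had been seen. Alternatives were other scalings, no filter, DESeq2 1.42.0, limma 3.58.1 with voom or on TPM (pseudocounts 0.1 and 1), a term for the litter date or for the replicate number, only the groups compared, and leaving out each library.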

Additional observations from a re-analysis of the deposited data

Results flagged for a closer look

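Among 22 groups of 4 libraries tested, a single library stood far from the other 3 in 3 groups. Chance gives about 1 in 20 groups if these are independent and normally distributed. The 22 groups share the same libraries, and Wt1 and Nr5a1 were correlated (r = 0.913), so the 3 cannot be set against that rate. Wt1 was at 2.57 CPM in heterozygous replicate 4, against 0.873 to 0.947 CPM in the other heterozygous libraries. Nr5a1 was at 3.01 CPM in the same library, against 0.961 to 1.3 CPM in the other heterozygous libraries. Nr5a1 was also at 0.944 CPM in deficient replicate 2, against 2.56 to 2.89 CPM in the other deficient libraries. Heterozygous replicate 4 was the only heterozygous library of January 29, and deficient replicate 2 shared that date, with a low value. Whether the litter date has a part in these values was not tested.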

How the results depend on the processing

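In each of the 4 comparisons, the number of the 10 genes called was 0 under every alternative run, leaving out each library in turn included (0 to 0), with 1 exception: limma voom with sample weights called 2 in deficient against heterozygous libraries (Vim and Krt18). Of 790 values for single genes under other settings, 788 kept their side of the threshold, and 55, none past the threshold, changed direction. All 10 genes began uncalled, and most settings called few or no genes of the table. Keeping their side was therefore likely beforehand and says little about stability. The fit with the replicate number as a block called 0 of the 10 in each comparison and 0 genes of the table. Deviations of same-numbered libraries from their group means had correlations from -0.42 to 0.38, with no common sign. This check cannot exclude pairing, since the deviations of the 2 wildtype libraries mirror each other. No deficient library shared its litter date with the heterozygous library of the same number. The difference in level of the other supporting cell markers between deficient and wildtype libraries, 0.18 on the log2 scale, was -0.18 without wildtype replicate 1 and 0.55 without wildtype replicate 2. The difference from heterozygous libraries, 0.13, ran from 0.07 to 0.19 as each library was left out. The number of the 10 correlated with those markers, 0 by Pearson's r, was 2 (Gata4 and Nr5a1) by Spearman's rho, 2 with the mean of log2 values in place of the sum, and 0 to 2 as each library was left out, with 2 without heterozygous replicate 1, where Nr5a1 lies at the threshold. For these shifts the cause was not tested. Depth limits the precision for Foxl2, with 3 to 46 reads per library, and its overlap with Foxl2os leaves its level uncertain. The wildtype group has 2 libraries.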
